A study of Rattus norvegicus with 48 samples.

Results

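In cerebral endothelial cells (CECs) of fasted rats, 113 genes were higher after 1 day and after 3 days without food, while their mean level after 2 days lay close to that of fed rats. They are 1.19% of the 9461 genes that had a mean of at least 100 reads over the 12 samples, out of 32624 features listed. The genes were chosen from the measured levels themselves, on the scale of log2(CPM + 0.1), where CPM is the reads of a gene per 1000000 reads assigned to genes in that sample. The mean of the 1 day group and the mean of the 3 day group each had to lie at least 0.4 above both the fed mean and the 2 day mean, and the 2 day mean had to lie within 0.3 of the fed mean. All differences between these groups are therefore descriptions of the choice and carry no p-value, except for day 3 against day 1. The choice did not use that difference itself. It did hold the day 1 and day 3 means to the same cutoffs, so a gene raised on 1 day only could not enter.

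RNA was measured in 4 groups of 3 samples each. Male Wistar-Han rats either had food at all times (AL rats) or were fasted for 1 day (F1 rats), 2 days (F2 rats) or 3 days (F3 rats), all with free access to water and all killed at the same hour of the morning. Each sample is a pool of the cortices of several rats, from which CD11b+ microglia were removed and CD31+ endothelial cells were retained with magnetic beads, and each was sequenced as 4 technical replicates that were summed here. The 3 samples of a group, here called i, j and k after the letters in their labels, are the only replicates. The methods describe them as coming from independent experiments, and p-values measure the spread between these pools. Since these are bulk samples, more cells of a kind and more RNA per cell cannot be told apart.

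CECs line the vessels of the brain and form the blood-brain barrier, sealed by tight junctions and supplied with transporters for glucose, ketone bodies, amino acids and vitamins. During a fast the blood glucose falls, fatty acids and ketone bodies rise, and glucocorticoids and nuclear receptors for fatty acids change transcription in many tissues. The shape and the junctions of endothelial cells depend on small GTPases of the cytoskeleton, which GEF proteins switch on and GAP proteins switch off.

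A symbol could be given to 15 of the 113 genes, or 13.3% of them, against 13.4% of the 9461 genes, and 1 of the 15 symbols names only a clone. The 14 that remain, with their Ensembl identifiers, are the regulators of small GTPases Arhgap31 (ENSRNOG00000003088), Arhgef3 (ENSRNOG00000014363) and Abr (ENSRNOG00000056837), the adaptor Bcar3 (ENSRNOG00000013737), the secreted protease Adamts9 (ENSRNOG00000023257), the thiamine carrier Slc19a3 (ENSRNOG00000057256), the ceramidase Acer2 (ENSRNOG00000007637), the receptor Adgrl2 (ENSRNOG00000032660), the kinase Aak1 (ENSRNOG00000018317), the ATP synthase assembly factor Atpaf1 (ENSRNOG00000010169), the elongation factor Aff1 (ENSRNOG00000002232), and Ccdc6 (ENSRNOG00000024019), Ccdc71 (ENSRNOG00000048718) and Ankdd1b (ENSRNOG00000025377). The list of symbols used here is a shortened one that runs mainly through the first letters of the alphabet, which is why nearly all of these names begin with A, B or C. Most of the exceptions named below are Slc and Slco carriers. The paper reports Slc19a3, Slc38a5, Slco1a4 and Slc2a1 as changed by fasting in these data, so these names are not a neutral sample. The genes without a symbol are counted in every total below and 2 of them are described by identifier.

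The promoters of 3 named genes are shown because these genes stand for the groups described below: the protease with the largest rise, the adaptor that follows it when the named genes are ranked by the smallest of their 4 differences, and the vitamin carrier. The capitals mark the only match of 1 short motif in each, a GC box (GGGCGG, here on the opposite strand) in Adamts9, an E-box (CACGTG) in Bcar3 and an AP-1 site (TGANTCA) in Slc19a3. Each run holds the 250 bases before the start of the gene in RefSeq, build GRCr8, 5′ to 3′ on the gene's own strand, at chr4:127019877-127020126 (minus strand), chr2:213209657-213209906 (plus strand) and chr9:91747130-91747379 (minus strand) in that order.
Adamts9: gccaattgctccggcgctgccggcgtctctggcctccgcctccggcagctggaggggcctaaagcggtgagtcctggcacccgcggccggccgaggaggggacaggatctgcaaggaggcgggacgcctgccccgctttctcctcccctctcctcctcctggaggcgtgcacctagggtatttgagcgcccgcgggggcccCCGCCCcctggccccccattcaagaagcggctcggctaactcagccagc
Bcar3: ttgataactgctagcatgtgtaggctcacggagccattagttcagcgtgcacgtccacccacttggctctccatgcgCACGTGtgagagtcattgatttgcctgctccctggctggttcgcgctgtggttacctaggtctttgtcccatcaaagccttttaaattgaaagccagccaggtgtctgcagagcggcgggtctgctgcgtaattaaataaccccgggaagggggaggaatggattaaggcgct
Slc19a3: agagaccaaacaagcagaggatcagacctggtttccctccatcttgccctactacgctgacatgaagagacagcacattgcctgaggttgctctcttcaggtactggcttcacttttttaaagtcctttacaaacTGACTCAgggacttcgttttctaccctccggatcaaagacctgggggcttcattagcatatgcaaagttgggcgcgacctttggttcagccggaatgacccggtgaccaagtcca

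The motifs were searched on both strands, in windows that also hold the first 50 bases of the gene, in the 18 promoters that RefSeq lists for the 14 named genes. A named gene was counted if any of its promoters held the motif, while the percentages are of single promoters, so these are unlike measures. The GC box was found for 10 of the 14 genes, in 33.1% of all 33469 promoters and in 65.1% of the 1094 promoters of the 9461 genes that had a symbol. The E-box was found for Bcar3 and Ccdc6 and in 9.96% of those 1094, and both matches are also the hypoxia element GCACGTG, which overlaps it. The AP-1 motif was found for Slc19a3 alone among the 14 genes, and in 4.39% of the 1094. Neither the direct repeat bound by PPAR nor the full palindromic glucocorticoid element was found in any of the 18 windows, and none of the 1094 held either of them. The shorter glucocorticoid motif AGAACA was found for Arhgef3, in 11.8% of the 1094, and the FOXO motif TGTTTAC for none of the 14 genes, in 3.11% of the 1094. A match or its absence describes letters in a short window and says nothing about binding.

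Over the 113 genes, the median difference from AL rats on the log2(CPM + 0.1) scale was 0.56 at day 1, 0.01 at day 2 and 0.70 at day 3, and the medians over the 9461 genes were -0.06, -0.06 and -0.05. The rise at day 1 ran from 0.40 to 1.49 and that at day 3 from 0.40 to 1.81. The smallest of the 4 required differences was at least 1 in 4 genes and under 0.5 in 54 genes, so many lie close to the threshold. It was a difference of F1 rats for 98 of the 113 genes, from AL rats in 47 and from F2 rats in 51. Together these genes took 1.98% to 2.22% of the reads of an AL sample and 1.88% to 2.51% of those of an F2 sample, but 3.39% to 3.73% after 1 day and 3.40% to 3.84% after 3 days. Their mean levels ran from 4.42 to 8771 CPM with a median of 52.7, with 23 genes under 10 CPM and 10 over 500 CPM.

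**Figure D1:**
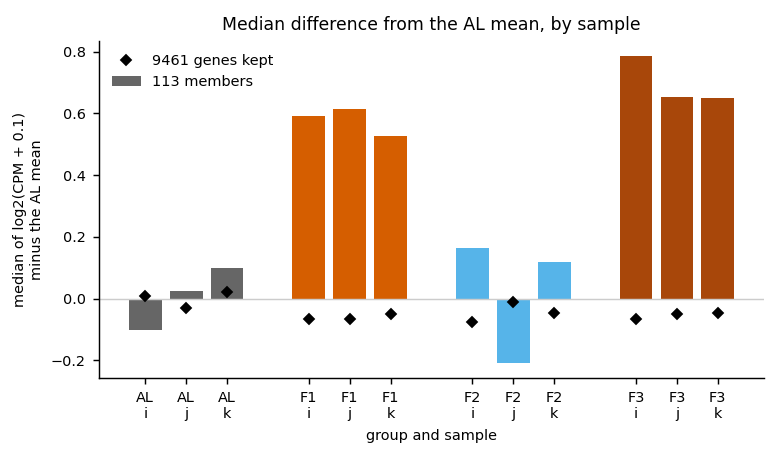
Bars give, for each of the 12 samples, the median over the 113 genes of log2(CPM + 0.1) minus the AL mean, and black diamonds give the same median over all 9461 genes kept. The F1 bars stand at 0.53 to 0.61 and the F3 bars at 0.65 to 0.79, while F2 sample j stands at -0.21 and the other two F2 samples at 0.12 and 0.16.

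Within the F2 rats, sample j stood apart from the other two. The median of the 113 genes against the AL mean was 0.16 in F2 sample i, -0.21 in sample j and 0.12 in sample k, where the AL samples stood at -0.10, 0.02 and 0.10. Sample j was the lowest of the 3 F2 samples for 87 of the 113 genes, or 77.0%, against 35.2% of all genes kept. In each other group 1 sample was also lowest most often. AL sample i was lowest for 59.3% of the 113 genes against 28.8% of all genes kept. For F1 sample k the shares were 59.3% and 31.2%, and for F3 sample j 52.2% and 30.3%. The rule used the means of these samples, so these shares are descriptions and were not tested. The day 2 level close to that of AL rats is thus a mean of 2 samples slightly above the fed level and 1 below it. With sample j left out, the median at day 2 rose from 0.01 to 0.13, 21 of the 113 genes lay more than 0.3 from the AL mean, and 60 of the 113 genes still met the rule. Of the 14 named genes 8 still did, and Adamts9, Arhgap31, Slc19a3, Abr, Aak1 and Aff1 did not. With any other sample left out, between 85 and 113 of the 113 genes still met it. In 86 of the 113 genes all 6 samples of F1 and F3 rats lay above all 6 samples of AL and F2 rats, beside 4.09% of all genes kept, and 87 did so without F2 sample j, beside 5.16% of all genes kept. The choice fixed most of that separation, so nothing is read from it.

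Pericyte markers varied between the F2 samples as well. The summed CPM of the 3 markers that had an identifier (Abcc9, Anpep and Atp13a5) was 242.4, 145.6 and 278.4 in F2 samples i, j and k, and 276.4, 154.5 and 111.0 in the AL samples. It was 115.8, 120.1 and 130.2 in the F1 samples and 256.7, 94.6 and 180.1 in the F3 samples, so the range of the AL and F2 samples overlapped with that of F1 and F3. None of the 3 was at 0 in any sample, and their part in the day 2 values was not tested.

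The 3 regulators of small GTPases were higher on both days. Arhgap31, a GAP for Cdc42 and Rac1, was the most abundant of them. Its level was 632.7, 807.7 and 739.3 CPM in the AL samples, 1188, 1173 and 1082 CPM in F1 rats, 904.1, 543.3 and 898.9 CPM in F2 rats, and 1340, 1176 and 1206 CPM in F3 rats. Every F1 and F3 sample was above every AL and F2 sample, and F2 sample j was the lowest of all 12. The mean level was 726.6 ± 88.2 CPM (SD, n = 3) when fed, 1148 ± 57.1 at day 1 and 1241 ± 87.1 at day 3, and the differences from AL rats were 0.67 and 0.78 on the log2 scale. Arhgef3, a GEF for such GTPases, was measured at 94.8, 78.7 and 113.2 CPM in AL rats, 128.8, 144.7 and 157.3 CPM in F1 rats, 104.7, 95.3 and 92.0 CPM in F2 rats, and 155.8, 172.3 and 159.7 CPM in F3 rats. Its F2 samples lay within the range of the AL samples, and its differences from AL rats were 0.60 at day 1 and 0.78 at day 3. Abr, which carries a GEF and a GAP domain in 1 protein, stood at 77.7, 69.5 and 76.0 CPM in AL rats, 116.1, 119.1 and 107.0 CPM in F1 rats and 146.1, 134.7 and 125.5 CPM in F3 rats. Its F2 samples were spread over 112.3, 59.4 and 79.3 CPM, and sample i of that group overlapped with the F1 samples. Bcar3, an adaptor that binds the focal adhesion scaffold Bcar1, was measured at 167.2, 226.8 and 216.9 CPM in AL rats, 339.0, 373.1 and 297.5 CPM in F1 rats, 253.9, 196.5 and 216.3 CPM in F2 rats, and 403.2, 358.8 and 350.6 CPM in F3 rats. Bcar3 did not overlap between the 6 higher and the 6 lower samples, and met the rule under all 20 alternatives tried, as did Arhgef3 and Acer2.

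Of 38 genes kept whose symbol begins with Arhgap or Arhgef followed by a digit, 2 were among the 113, or 5.26%, beside 1.19% of all genes kept. Most genes of any family lie outside the 113 at such a share, so nothing is read from this count. Arhgap27 came nearest of the others, with its smallest required difference at 0.31, and Arhgef15 was farthest, at -0.83. Bcar1 itself was lower than in AL rats by 0.24 in the F1 mean and by 0.31 in the F3 mean on the log2 scale, which is given without a test. These relatives were looked up after the 113 genes were known.

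Adamts9, a secreted metalloprotease that cleaves proteoglycans of the matrix, had the largest rise of the named genes. Its level was 107.0, 158.9 and 126.6 CPM in AL rats and 350.6, 374.3 and 362.4 CPM in F1 rats. It was 154.0, 101.9 and 189.5 CPM in F2 rats and 524.4, 366.0 and 484.0 CPM in F3 rats. The highest AL or F2 sample, at 189.5 CPM, was far below the lowest F1 or F3 sample, at 350.6 CPM. The differences from AL rats were 1.49 at day 1, 0.16 at day 2 and 1.81 at day 3 on the log2 scale. The gene met the rule under 18 of 20 alternatives and failed when AL sample j or F2 sample j was left out, because the day 2 mean then lay further from the AL mean. Its 3 relatives with a symbol, Adamts1, Adamts10 and Adamts12, lay below AL rats on both days, with Adamts1 at -0.47 and -0.68.

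Slc19a3, a carrier of thiamine, the vitamin that pyruvate dehydrogenase needs as a cofactor, was measured at 180.0, 188.1 and 205.2 CPM in AL rats and 319.7, 336.4 and 304.0 CPM in F1 rats. Its level was 292.9, 153.6 and 238.2 CPM in F2 rats and 427.1, 404.5 and 285.5 CPM in F3 rats. The F1 samples were all above the AL samples, but F2 sample i was higher than F3 sample k, so the groups overlapped. Without F2 sample j the gene no longer met the rule. The carrier Slc19a1, which moves reduced folate, went the other way in the group means, with differences of -0.55 at day 1 and -0.34 at day 3 from AL rats.

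Acer2, the ceramidase of the Golgi that turns ceramide into sphingosine, was the most abundant of the named genes. It was measured at 1983, 2284 and 1634 CPM in AL rats, 3545, 3608 and 3078 CPM in F1 rats, 2183, 2190 and 2114 CPM in F2 rats, and 3360, 2863 and 3030 CPM in F3 rats. The F2 samples lay within the range of the AL samples and close together, at 2163 ± 42.0 CPM (SD, n = 3), and F2 sample j was not the lowest of them. Acer2 was 0.80 above AL rats at day 1 and 0.66 at day 3, 1 of 3 named genes whose mean was lower at day 3 than at day 1. The other two were Ccdc71 and Ccdc6.

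Adgrl2, an adhesion G protein-coupled receptor of the latrophilin family, was measured at 212.6, 212.6 and 248.7 CPM in AL rats, 314.0, 326.0 and 300.8 CPM in F1 rats, 217.3, 176.2 and 243.1 CPM in F2 rats, and 359.5, 296.0 and 339.8 CPM in F3 rats. Every F1 and F3 sample was above every AL and F2 sample, and the differences from AL rats were 0.48 and 0.56. Among its relatives the endothelial receptor Adgrl4 came nearest, with differences of 0.33 and 0.45 from AL rats and a smallest required difference of 0.25. Aak1, a kinase that phosphorylates the clathrin adaptor AP2, had the widest spread between F2 samples of the named genes relative to its level, at 28.6, 10.3 and 24.4 CPM, against 21.0, 19.3 and 25.6 CPM in AL rats. F2 sample i was above F1 sample k, at 26.6 CPM, and the gene failed the rule when any 1 of the 3 F2 samples was left out.

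Aff1, a scaffold of the super elongation complex that releases paused RNA polymerase, stood at 170.4 ± 45.4 CPM (SD, n = 3) when fed, 252.2 ± 41.0 at day 1, 191.6 ± 43.5 at day 2 and 300.2 ± 34.0 at day 3. Its lowest F1 sample, at 214.0 CPM, lay below F2 sample k at 222.7 CPM and just above AL sample j at 213.5 CPM. Atpaf1, which binds the beta subunit of ATP synthase during assembly, stood at 14.4 ± 1.78, 19.3 ± 1.67, 13.3 ± 0.631 and 20.7 ± 1.69 CPM in AL, F1, F2 and F3 rats, and its F1 and F3 samples all lay above its AL and F2 samples. Aff1 and Atpaf1 lay just inside the threshold, with smallest required differences of 0.41 and 0.42. Ccdc6, known as a fusion partner of the kinase RET, was measured near 5.80 ± 0.527, 8.55 ± 0.351, 5.36 ± 0.694 and 8.50 ± 0.473 CPM in the same order, and rested on as few as 109 reads in a sample. Ccdc71 stood at 9.19 ± 0.525, 14.9 ± 1.78, 9.83 ± 1.73 and 14.4 ± 0.741 CPM, and F2 sample j was the highest of its group here, unlike in most of the 113 genes. Ankdd1b was measured at 11.9 ± 1.57, 16.6 ± 1.40, 11.6 ± 1.20 and 17.3 ± 5.28 CPM, and its day 3 mean rests on sample k at 23.3 CPM, without which the gene failed the rule.

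**Figure D2:**
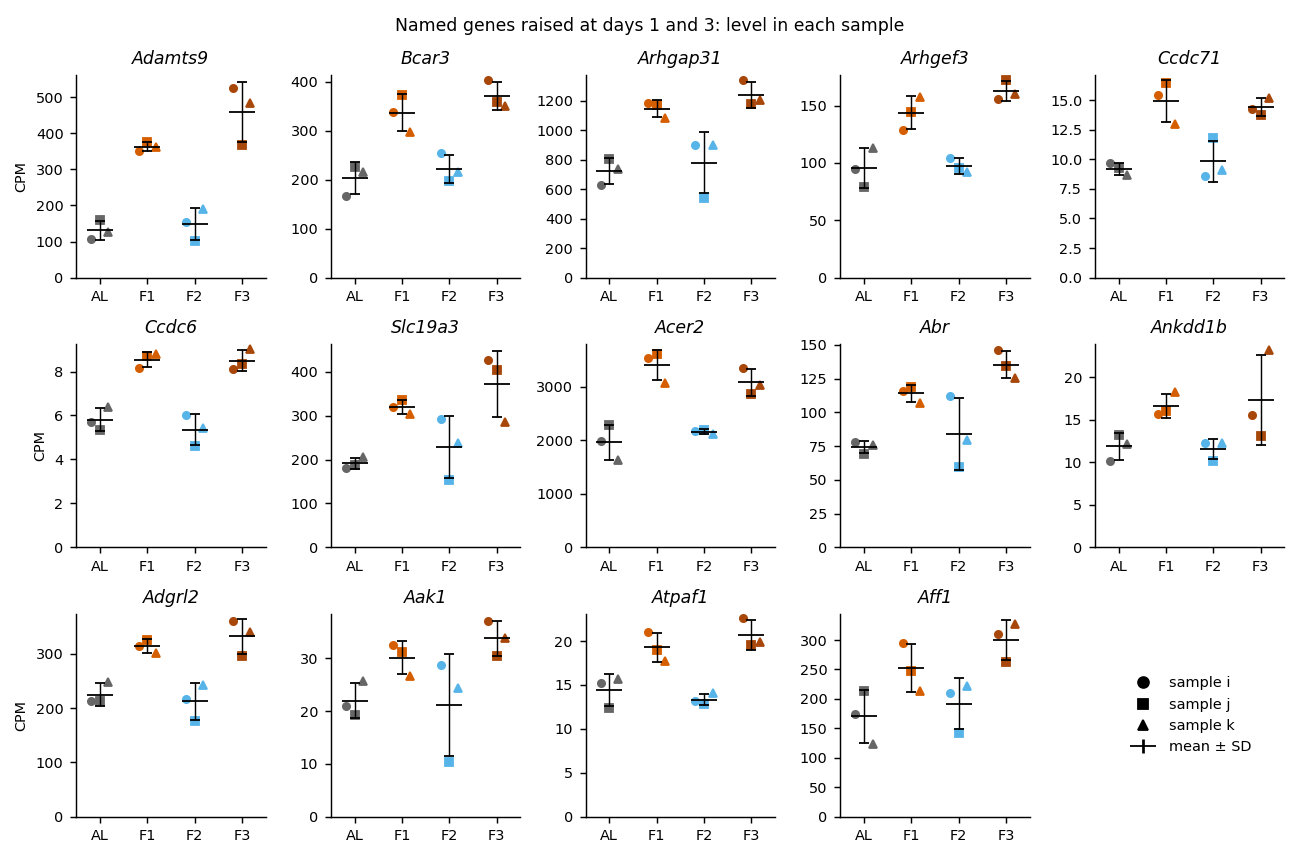
Each panel gives the CPM of 1 named gene in the 12 samples, by group, with circles, squares and triangles for samples i, j and k and black bars for the mean ± SD of 3 samples. F1 and F3 rats lie above AL and F2 rats in every panel by their means, which the choice required. The square of the F2 group is the lowest of its group in 11 of the 14 panels, where F2 sample j is lowest for 35.2% of all genes kept.

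Of the genes without a symbol, ENSRNOG00000007324 had the largest value of the smallest required difference, 1.46. It was measured at 402.4, 494.2 and 707.7 CPM in AL rats, 1411, 1607 and 1347 CPM in F1 rats, 772.5, 339.5 and 561.6 CPM in F2 rats, and 2025, 1541 and 1699 CPM in F3 rats. ENSRNOG00000014288 was the most abundant of all 113 genes, at 5952 ± 260.4 CPM (SD, n = 3) when fed, 11509 ± 784.6 at day 1, 6649 ± 857.2 at day 2 and 10973 ± 1252 at day 3. Neither gene overlapped between the 6 higher and the 6 lower samples.

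At the edge of the choice the values ran on without a gap. The member with the lowest value had a smallest required difference of 0.4002, and the first gene outside had 0.3991. Outside and with a symbol were the survival factor Bcl2 at 0.39, the Argonaute protein Ago2 at 0.39 and the lysosomal peptide carrier Abcb9 at 0.38. A further 36 genes met the 4 required differences but lay more than 0.3 from the AL mean at day 2. The reverse pattern, lower at days 1 and 3 by the same thresholds, was found in 83 genes, and 369 genes were at least 0.4 above AL rats on both days with no condition on day 2.

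Whether the pattern is seen in samples that did not pick the genes was examined by applying the rule to 2 samples of each group and reading the differences in the third. With letter i left out, 87 genes were picked, and in the 4 samples of letter i their median F1 level was 0.72 above AL and 0.42 above F2, and their F3 level 0.89 above AL and 0.59 above F2. With letter j left out, 76 genes were picked, and the medians were 0.56, 0.65, 0.53 and 0.67 in the same order. With letter k left out, 180 genes were picked and the medians were 0.31, 0.28, 0.46 and 0.47. The rises thus kept their direction in all 3 readings, at a mean of 0.53 ± 0.21 (SD over 3 readings) for F1 minus AL, 0.45 ± 0.19 for F1 minus F2, 0.63 ± 0.23 for F3 minus AL and 0.58 ± 0.10 for F3 minus F2, where the medians over all genes kept were between -0.06 and -0.01. All 4 rises were above 0 in 94.3%, 88.2% and 77.8% of the genes picked, and in 22.9%, 20.3% and 17.5% of all genes kept. The picks share samples, so the readings are not independent and their SD does not measure the spread between samples. The genes are not independent either. Within groups, the deviations of each of the 113 genes correlated with the mean of the others at -0.642 to 0.984, mostly above 0. Shares of genes are thus no count of separate readings. All genes kept include genes not raised by fasting, so the readings describe the picks and are not a test of the pattern.

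The return at day 2 was less stable in the samples left out. The median F2 level against AL was 0.31 in the samples of letter i, -0.20 in those of letter j and 0.04 in those of letter k, and the medians over all genes kept were -0.09, 0.02 and -0.07. The full rule, return included, was met in the samples left out by 26 of 87, 22 of 76 and 20 of 180 genes, and by 1.60%, 1.25% and 0.676% of all genes kept. Each reading compares single samples.

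**Figure D3:**
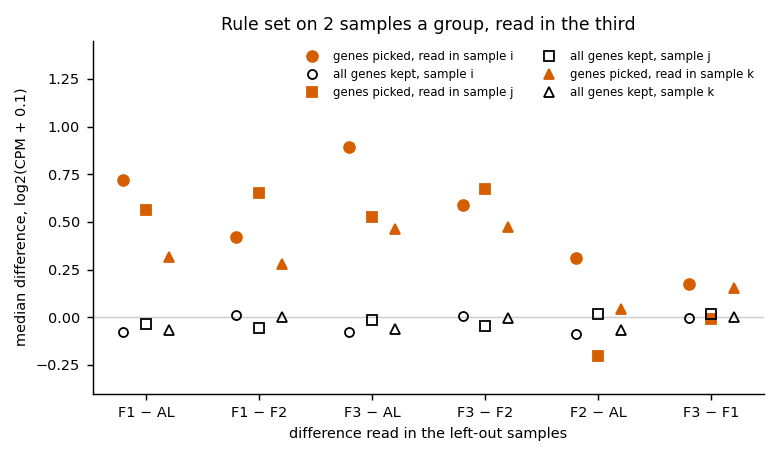
Filled symbols give the median difference, on the log2(CPM + 0.1) scale, of the genes picked from 2 samples of each group, read in the third, and open symbols give the median of all genes kept, with circles, squares and triangles for left-out letters i, j and k. The first 4 differences lie between 0.28 and 0.89 for the genes picked, while F2 minus AL runs from -0.20 to 0.31.

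Day 3 against day 1 is the one comparison of 2 groups whose difference the choice did not use. Both means had to pass the same cutoffs, so the values of the 113 genes here are not independent of the choice. No gene was called by the quasi-likelihood test of edgeR at a Benjamini-Hochberg adjusted p of at most 0.05, which is 0% of the 13050 genes tested and 0 of the 113 genes. At an unadjusted p under 0.05 there were 586 genes, 1 of them among the 113, and DESeq2 called 24 genes, 0.204% of those with an adjusted p, none of them among the 113. The fitted Log2 fold change (LFC) of F3 against F1 ran from -0.27 to 0.36 over the 113 genes with a median of 0.09, and was above 0 for 93 of them, or 82.3%, against 49.5% of the genes tested, whose median was -0.002. The median standard error of 1 gene was 0.15, larger than this median LFC. The genes were chosen by rule and read in the same samples, so the share above 0 was not tested. In the samples that did not pick the genes, the median of F3 minus F1 was 0.17, -0.01 and 0.15, so that the direction differed between the readings.

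Among the named genes, the LFC of F3 against F1 was largest for Adamts9, at 0.32 ± 0.21 (SE), and was 0.24 ± 0.21 for Aff1, 0.23 ± 0.17 for Abr and 0.20 ± 0.20 for Slc19a3. It was -0.16 ± 0.12 for Acer2. The adjusted p from edgeR lay between 0.992 and 0.996 for the 14 named genes, so none passed the threshold, and a difference of the order of its standard error was not detectable with 3 samples a group. With only the 6 samples of F1 and F3 rats in the model, 21 of the 113 genes and 998 of all 13050 had an unadjusted p under 0.05, and the smallest adjusted p among the 113 was 0.107. The LFC closest to 0 were those of Ccdc6 at -0.02, Ankdd1b at 0.04 and Adgrl2 at 0.07.

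**Figure D4:**
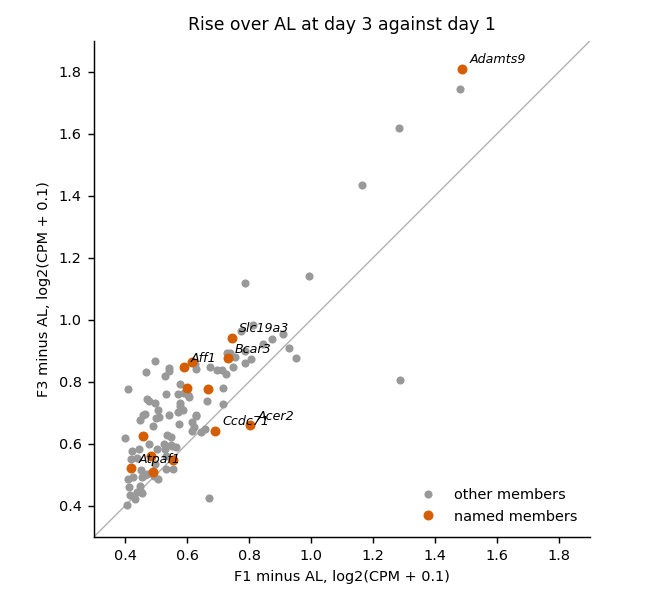
Each point is 1 of the 113 genes, with the difference of F1 from AL rats on the horizontal axis and that of F3 from AL rats on the vertical axis, both on the log2(CPM + 0.1) scale, named genes in orange, and the line of equal rises. 98 of the 113 points lie above the line, or 86.7%, beside 52.7% of all genes kept, and Adamts9 has the largest rise on both days, at 1.49 and 1.81. The points use CPM by total reads, while the fitted LFC, scaled by TMM, was above 0 for 93 genes.

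In the comparisons that the choice did use, the same edgeR model gave counts that are stated beside the share over all genes and from which nothing is read. Higher in F1 than in AL rats were 85 of the 113 genes, beside 3.92% of all genes tested, and higher in F3 than in AL rats were 100, beside 6.28%. Higher in F1 than in F2 rats were 42, beside 0.935%, and higher in F3 than in F2 rats were 86, beside 3.58%. F2 against AL rats gave 0 of the 113 and 0.92% of all genes in either direction. All 4 rises were called for 41 of the 113, beside 0.559%, and these include 8 of the 14 named genes, the exceptions being Arhgap31, Slc19a3, Abr, Ankdd1b, Aak1 and Aff1.

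These counts, and those over all genes, depend on single samples. F1 against AL gave 34, 35, 41, 50 and 56 of the 113 without F1 sample j, AL sample i, F1 sample i, AL sample k and F1 sample k, while the calls over all genes, in either direction, went from 857 to 304, 384, 432, 421 and 552. F1 against F2 gave 0 without F1 sample i or F1 sample j, where no gene at all was called, and 11 without F3 sample k, 13 without F2 sample k, 19 without F2 sample j and 20 without F1 sample k, with 37, 49, 79 and 60 genes called over all in place of 175. F3 against F2 gave 31 without F3 sample i and 54 without F3 sample k, with 145 and 304 genes called over all in place of 767. Without F2 sample j, F2 against AL rats called 4 of the 113 genes as higher at day 2, F1 against AL rats 104 and F3 against AL rats 111, while the calls over all genes went from 120 to 154, from 857 to 1468 and from 1567 to 2378.

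Genes of 14 lists for pathways that fasting or endothelial signalling may touch held 416 different genes, of which 59 had an identifier here and 53 were kept. 2 of these 53 were among the 113, beside 1.19% of all genes kept. They were Slc19a3 in the list of glucocorticoid-responsive genes and Adamts9 in that of matrix and proteases. Slc19a3 is also among the carriers that the paper reports as changed by fasting in these data. In the PPAR and fatty acid oxidation list, 10 of 45 genes had an identifier and were kept, and none of them was among the 113. The rest of that list could not be looked up, so whether it holds any of the 113 is not known. Of these 10, 2 rose and 1 fell in F1 against AL rats, 3 rose and 1 fell in F3 rats, and none was called in F2 rats, by the edgeR test. Angptl4, an inhibitor of lipoprotein lipase, was the nearest of these 10 to the pattern. It was 0.43 above AL rats at day 1 (adjusted p = 0.0123, edgeR), 0.13 at day 2 (adjusted p = 0.552) and 0.55 at day 3 (adjusted p = 0.00233). Its smallest required difference was 0.31. Of the 3 glucocorticoid-responsive genes kept, out of 38 in that list, Arrdc3 was 0.53, 0.62 and 0.77 above AL rats at days 1, 2 and 3, without a return at day 2. Arrdc2 differed from AL rats by 0.07, -0.30 and -0.07 on the same days. The FOXO and insulin list had 7 of 38 genes kept. Of these, 2 rose at day 1 and 1 at day 3, Bcl2l11 on both days and Angpt2 at day 1. The day 2 means of Bcl2l11 and Angpt2 lay 0.46 and 0.61 above AL rats. The hypoxia and glycolysis list had 7 of 33 genes kept. Of these, the glucose carrier Slc2a1 rose at days 1 and 3, and its day 2 mean was 0.37 above AL rats. The clock, immediate early, angiogenic, junction, Wnt, chaperone, amino acid stress, inflammation and sterol lists also held none of the 113 genes, with at most 8 members of each having an identifier.

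Of 118 marker genes of cell types, 18 had an identifier and none was among the 113. The 3 endothelial markers (Pecam1, Slco1a4 and Slc2a1) summed to 16129 to 21010 CPM in AL and F2 samples and to 19764 to 21516 CPM in F1 and F3 samples. The 6 microglia markers of 14 summed to 2.69 to 4.94 CPM and to 2.32 to 5.55 CPM in the same order, the smooth muscle marker Acta2 stood at 5.46 to 15.0 and 5.16 to 12.4 CPM, the astrocyte marker Aldoc at 62.9 to 96.0 and 64.5 to 94.6 CPM, and the red blood cell marker Alas2 at 1.48 to 4.62 and 1.54 to 3.62 CPM. All of these ranges overlapped. The endothelial sum was mostly Slc2a1, at a mean of 15188 CPM. Its AL samples alone, at 17615, 17669 and 16129 CPM, lay below every F1, F2 and F3 sample. The differences from AL rats at days 1 and 3 were 0.38 and 0.48 for Slc2a1, -0.42 and -0.48 for Slco1a4, and 0.10 and -0.01 for Pecam1. The venous marker Slc38a5 was the only 1 of 9 with an identifier. It stood at 112.3 to 168.0 CPM in AL and F2 samples and 87.7 to 110.1 CPM in F1 and F3 samples. These ranges did not overlap, and the part of Slc38a5 in the pattern of the 113 genes was not tested. The paper reports Slc38a5, Slco1a4 and Slc2a1 among the carriers that fasting changed in these data, so these markers are not a neutral choice. The 2 arterial markers of 12 summed to 312.3 to 466.7 CPM and 361.1 to 405.3 CPM in the same order, with overlap. Markers of fibroblasts, neurons and oligodendrocytes had no identifier here.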

How the data were processed

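The deposited values are raw read counts per Ensembl gene, made by the authors from stranded poly(A) libraries. The submitters' processing notes name bcl2fastq 2.18.0.12, STAR, HTSeq 0.5.3 and the build Rnor_6.0. The strand setting of the counting is not given in the sources used here, so whether reads of overlapping or antisense genes were told apart is not known.

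Summing the counts of 4 technical replicates gave 20718644 to 25960874 reads per sample. Of 1 technical replicate counted with F1 sample k the labels disagree, and the results were also computed without it. CPM used the total reads of a sample, and the pseudocount was 0.1. Genes with at least 1 read in each sample (13050) entered a single edgeR 4.0.16 quasi-likelihood model (R 4.3.3, TMM) of 12 samples with 4 group means, with Benjamini-Hochberg adjustment over all of them and a threshold of 0.05. Only the edgeR fit of F3 against F1 was run on simulated data. The rule, the held-out readings, the lists and the motif search were not. The alternatives were DESeq2 1.42.0, other scalings, count filters, pseudocounts and thresholds, medians in place of means, a model of the F1 and F3 samples alone, a block for the letter, and each sample left out. Leaving out samples in the comparisons that the rule used was added after seeing the data.

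The genes named are the members with a symbol, ranked by the smallest of the 4 differences, any member of a gene list, and the genes next to the threshold. Symbols come from a shortened table that pairs identifiers with names, for 2043 of the 13050 genes, and RefSeq promoters were matched by gene number. The members and the lists were chosen with earlier results of these data known.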

Additional observations from a re-analysis of the deposited data

How the results depend on the processing

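The number of genes that meet the rule was 113, and under 18 of 20 alternatives it stayed within 1.5 times of that. It was 74 with a mean of at least 500 reads and 52 with a rise of 0.5 and a return of 0.2, both of which are stricter by construction. It ran from 79 to 159 with 1 sample left out, lowest without F2 sample j and highest without AL sample k. With TMM scaling 150 genes met the rule and 111 of the 113 were among them, and 21 of the 113 met it under all 20 alternatives. The held-out medians stayed within 1 SD of their values under TMM scaling, a pseudocount of 1 and a mean of at least 500 reads. In F3 against F1, 0 of the 113 genes were called under every alternative, while the count over all genes was 11 with no filter, 3 with only the 6 samples of F1 and F3, 24 with DESeq2, and 0 to 1 with 1 sample left out. The LFC of F3 against F1 changed sign for Ccdc71 (-0.166 to 0.010 with 1 sample left out, above 0 without F1 sample j), Ccdc6 (-0.065 to 0.004, above 0 without F3 sample i) and Ankdd1b (-0.222 to 0.205, and -0.001 without F1 sample i), and none of these values passed the threshold. With the sample letter as a replicate block 1 gene and 0 of the 113 were called. Whether a letter marks a shared experiment is not stated in the labels. Deviations of F1 and F3 samples of the same letter correlated across genes at 0.07, 0.03 and 0.03, and those of different letters at -0.06 to 0.03. Not every sample correlated best with its own letter. Over all pairs of groups, same-letter samples correlated at -0.02 to 0.14, mostly above 0, against -0.19 to 0.20 for different letters. The letter was not used as a pairing in the main model, a choice that these ranges do not decide. Changes under other alternatives were not traced to a cause. With 3 samples a group, small differences between days 1 and 3 could not be seen, and no group of 3 was tested for outlying samples.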
